A study of Mus musculus with 8 samples.

Results

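A set of 6 mouse genes for eosinophil granule proteins and ribonucleases were described, Prg2, Prg3, Epx, Ear1, Ear2 and Ear6, taken by name from a single-cell table of 32285 genes, of which 21039 had at least 1 UMI (a unique molecular identifier, which counts 1 captured RNA molecule). All 6 were present in the table with UMIs. Whole bone marrow cells were kept for 1 week on irradiated AFT024 cells, a stromal feeder line from mouse fetal liver, in long-term culture medium with hydrocortisone. One group had medium alone (media control) and the other had deoxycholic acid, a secondary bile acid, at 35 µM, and both were sorted for lineage-negative cells before capture. The labels list 4 samples in each group, but the cell names carry the group alone, so each group was 1 library and no difference between them has a replicate check or a test. The labels used here give no strain, sex or age of the mice.

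Eosinophils and basophils are granulocytes that share progenitors and carry preformed proteins in their granules. Prg2 encodes major basic protein, a toxic cationic protein of the eosinophil granule, and Prg3 encodes its homolog. Epx encodes eosinophil peroxidase, and the Ear genes encode eosinophil-associated ribonucleases, a rodent family with many near-identical copies.

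The media control library held 9346 barcodes with 183462851 UMIs and the deoxycholic acid library 8520 barcodes with 131341422 UMIs. Filters on quality and doublets kept 8495 and 7755 cells, with median depths of 18831 and 14424 UMIs, and 25 barcodes occurred in both libraries. The cells fell into 16 clusters, found without the 6 genes and without the other Ear and Rnase2 genes. Clusters were named from marker lists as GMP-like (granulocyte-monocyte progenitor-like, 2 clusters), immature neutrophil-like (3 clusters), mature neutrophil-like (1 cluster) and basophil-like (1 cluster), and 9 clusters stayed unnamed. All intervals are exact 95% intervals that cover counting error only, since UMIs of 1 cell are not independent draws.

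The sequences around the gene starts are shown because the 3 ribonuclease genes were alike there, while their UMIs were divided differently between the cell classes. Of the 6 genes, 5 had an entry in the RefSeq promoter table (build GRCm38.p6), each a window of 300 bases around the start, and Prg2 did not. The windows lie at chr14:43819590-43819889 on the minus strand for Ear1, chr14:44102404-44102703 on the plus strand for Ear2 and chr14:51853518-51853817 on the plus strand for Ear6. Capitals in Ear2 and Ear6 mark letters that differ from Ear1 in the alignment, and Ear1 is the sequence they were compared with.
Ear1: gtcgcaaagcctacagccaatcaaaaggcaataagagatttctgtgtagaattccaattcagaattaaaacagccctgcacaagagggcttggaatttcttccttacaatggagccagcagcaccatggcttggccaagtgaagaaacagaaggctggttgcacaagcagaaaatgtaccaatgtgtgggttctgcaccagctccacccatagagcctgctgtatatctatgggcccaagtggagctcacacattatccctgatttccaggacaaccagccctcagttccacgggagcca
Ear2: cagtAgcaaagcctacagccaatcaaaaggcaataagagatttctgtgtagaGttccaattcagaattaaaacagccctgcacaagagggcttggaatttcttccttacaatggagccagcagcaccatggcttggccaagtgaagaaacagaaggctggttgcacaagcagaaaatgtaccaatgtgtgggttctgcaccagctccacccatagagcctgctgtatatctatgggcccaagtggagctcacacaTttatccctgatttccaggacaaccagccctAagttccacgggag
Ear6: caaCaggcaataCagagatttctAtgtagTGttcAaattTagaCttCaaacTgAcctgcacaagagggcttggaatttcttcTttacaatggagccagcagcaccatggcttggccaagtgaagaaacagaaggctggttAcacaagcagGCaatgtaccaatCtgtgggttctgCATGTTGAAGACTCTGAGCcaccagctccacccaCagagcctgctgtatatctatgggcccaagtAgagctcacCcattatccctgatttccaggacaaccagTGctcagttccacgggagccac
Over the aligned positions, Ear2 differed from Ear1 at 4 of 298 and Ear6 at 40 of 299, which gave identities of 98.7% and 86.6%. The transcripts of Ear1 and Ear2 were 96.2% identical and those of Ear1 and Ear6 83.3%. Of the stretches of 90 bases in the last 500 bases of each transcript, where a 3′ library is read, 26.3% of those of Ear1 and 9.73% of those of Ear2 were shared with another gene or pseudogene of the family, and none of those of Ear6, Epx, Prg2 or Prg3 were. The division of UMIs between Ear1 and Ear2 is therefore uncertain.

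The Prg3 window, chr2:84987965-84988264 on the plus strand, is shown for its match to a GATA motif, the motif of the factors Gata1 and Gata2, with the match in capitals.
Prg3: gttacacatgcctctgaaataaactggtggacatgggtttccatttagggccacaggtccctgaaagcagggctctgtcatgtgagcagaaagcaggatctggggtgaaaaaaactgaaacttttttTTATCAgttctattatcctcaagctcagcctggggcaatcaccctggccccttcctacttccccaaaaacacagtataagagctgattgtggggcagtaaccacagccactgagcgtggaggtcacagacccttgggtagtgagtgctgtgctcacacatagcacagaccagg
The letters searched on both strands were AGATAA or TGATAA, and 18.6% of 32851 promoters of the same length held them. Prg3 had 1 match and Epx, Ear1, Ear2 and Ear6 had none. For the C/EBP factors, TTGNNNAA was found in all 5 windows and in 36.7% of all promoters. The narrower TTGCNNAA, searched after those matches had been seen, was found in Ear1 and Ear2 only and in 10.8% of all promoters. The PU.1 letters GAGGAA were in no window of these genes and in 28.3% of promoters, and TATAAA or TATATA was in Epx alone and in 17.1%. Such matches describe letters and show no binding.

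Prg2, Prg3 and Epx were counted mainly in basophil-like cells, Ear2 and Ear6 mainly outside them, and no single class held most of Ear1. Over both libraries, basophil-like cells were 235 of 16250 cells but held 87.6% of the Prg2 UMIs (87.1 to 88.1), 89.3% of the Prg3 UMIs (87.3 to 91.0) and 94.5% of the Epx UMIs (89.9 to 97.5). Within the class, 45 cells with at least 10 Prg2 UMIs held 12260 of 12308 Prg2, 956 of 999 Prg3 and 155 of 156 Epx UMIs. Those cells, chosen by Prg2, are described below. Basophil-like cells held 40.7% of the Ear1 UMIs (36.5 to 44.9), beside 29.4% in immature and 7.30% in mature neutrophil-like and 22.1% in unnamed cells. They held 7.53% of the Ear6 UMIs (6.87 to 8.25) and 0.589% of the Ear2 UMIs (0.475 to 0.722). Immature and mature neutrophil-like cells held 45.1% and 9.72% of Ear2 and 42.6% and 32.9% of Ear6, and unnamed clusters held 41.3% of Ear2. The levels below are CPM, UMIs scaled to a common total over the summed cells, with no length term because a 3′ library counts 1 end of each molecule.

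**Figure D1:**
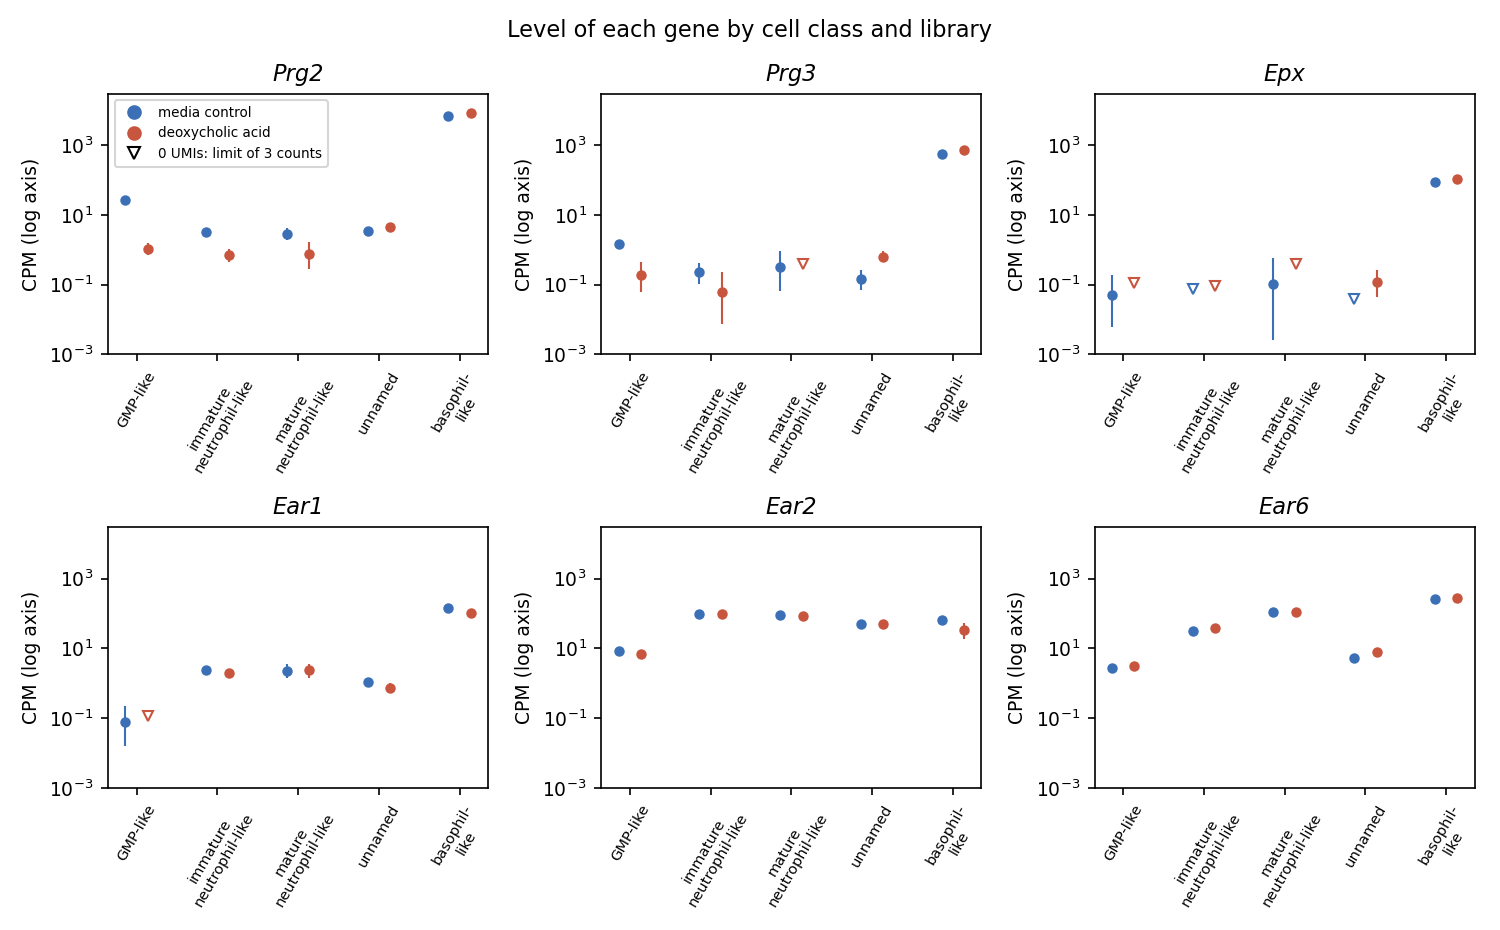
Level of each gene (CPM, log axis) by cell class in the media control (blue) and deoxycholic acid (red) libraries. Points are sums over cells with exact 95% counting intervals, and open triangles stand for 0 UMIs, drawn at the level of 3 counts. Prg2, Prg3 and Epx stand apart in basophil-like cells, while Ear2 is spread over the neutrophil-like classes.

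The basophil-like cluster carried basophil proteases, and 5 of 8 eosinophil markers had UMIs in it. All 13 basophil markers were raised in it, and Prss34 and Mcpt8, proteases of basophil granules, stood at 4561 and 7962 CPM without the bile acid and at 3479 and 10598 with it. Of 8 eosinophil markers other than the 6 genes, 5 had a UMI in basophil-like cells, with a summed level of 111 CPM in the media control and 154 with the bile acid. Most of that was Alox15, a lipoxygenase, at 64.0 and 91.5 CPM, against 0.595 and 0.552 in all kept cells. Il5ra, a chain of the interleukin-5 receptor, was at 17.7 and 18.3 CPM, against 0.180 and 0.0935, and Siglecf, a lectin of the eosinophil surface, at 10.9 and 18.3, against 2.81 and 2.15. Fut7 was at 16.0 and 24.4 CPM, against 2.89 and 3.32, and Ccr3, the eotaxin receptor, had 3 and 1 of its 5 and 6 UMIs there. The eosinophil markers Rnase2a, Rnase2b and Ear10, all ribonuclease genes, were at 0 there. In all kept cells Rnase2a had 1 and 0 UMIs and Ear10 1 and 1, so these zeros say little about the cluster. No cluster was named eosinophil-like, and in all kept cells the 8 markers summed to 6.52 and 6.18 CPM, with Rnase2b at 0. Of 9 mast cell markers counted, 5 had a UMI in basophil-like cells, with a summed level of 3903 and 4637.5 CPM. They were Cpa3, Ms4a2 and Fcer1a, which are basophil markers too, Kit, and the mast cell protease Cma1. The mast cell proteases Tpsb2, Tpsab1 and Mcpt4 were at 0 there, as was Mrgprb1.

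Prg2 was at 6853 CPM (6705 to 7003) in basophil-like cells of the media control and at 8474 (8219 to 8735) in the bile acid library, a log2 ratio of 0.31 (0.25 to 0.36). Prg3 was at 539 CPM (498 to 582) and 730 (656 to 809), a log2 ratio of 0.44 (0.25 to 0.63). Both were higher with the bile acid and their intervals did not overlap, but the direction rested on how the cells were chosen and weighted. A second choice took kept cells of any class with at least 10 UMIs of Mcpt8 and Prss34 together. It held 2.54% and 1.83% of kept cells, against 1.74% and 1.12% in the basophil-like class, so it included cells from outside that class. Among the cells so chosen, the log2 ratio was -0.07 for Prg2 and 0.06 for Prg3. As a mean of each cell's CPM in the basophil-like class, the log2 ratio of Prg2 was -0.0031. Prg3 was at 7.86 UMIs per 100 of Prg2 in the media control and 8.61 with the bile acid.

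Epx was at 87.6 CPM (71.6 to 106) in basophil-like cells of the media control, from 104 UMIs in 14 cells, and at 106 (78.9 to 139) with the bile acid, from 52 UMIs in 9 cells. These intervals overlapped, and the log2 ratio was 0.27 (-0.24 to 0.76). Outside that class Epx had 3 UMIs in 8347 media control cells and 6 in 7668 deoxycholic acid cells. In immature neutrophil-like cells it had 0 UMIs in 2286 and 2233 cells, which allows a share of cells with a UMI of up to 0.131% and 0.134% by the limit of 3 counts, and of up to 0.161% and 0.165% by the exact interval. Mpo, the related peroxidase of neutrophil granules, was at 607 and 689 CPM in all kept cells.

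The ribonuclease genes differed from each other in basophil-like cells. Ear1 was at 145 CPM (124 to 168) in the media control and 104 (77.2 to 136) with the bile acid, a log2 ratio of -0.48 (-0.96 to -0.02). Ear2 was at 64.0 CPM (50.4 to 80.1) and 32.5 (18.6 to 52.8), from 76 UMIs in 15 cells and 16 UMIs in 2 cells, a log2 ratio of -0.98 (-1.85 to -0.19). Ear6 was at 254 CPM (226 to 285) and 268 (224 to 318), a log2 ratio of 0.08 (-0.23 to 0.38). Among cells chosen by Mcpt8 and Prss34, the log2 ratios were 0.62 for Ear1, 0.16 for Ear2 and 0.65 for Ear6, the opposite direction for Ear1 and Ear2. With the same choice and no doublet removal they were -0.02, -0.05 and 0.59. Of 17 basophil-like cells with 2 or more Ear1 UMIs, 0 had 10 or more Prss34 UMIs and 2 had 10 or more of Mcpt8. For Ear2 these were 0 and 1 of 8 cells. For these 2 genes the ratios thus came from largely different cells, and those among the chosen cells have no interval.

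All 6 genes had at least 20 CPM and 50 UMIs in 1 library of this class, and 1 of them, Ear2, was past a log2 ratio of 0.5 in either direction, being lower. In the same class 13.3% of 2907 genes were lower by that rule and 6.12% were higher. The median log2 ratio was 0.17 over the 6 genes and -0.06 over all genes compared. One cell could carry much of a gene here, and without the cell highest for the gene in each library the log2 ratio was -1.59 for Ear1, -1.56 for Ear2 and -0.39 for Ear6. As a mean of each cell's CPM it was -1.54 for Ear2.

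**Figure D2:**
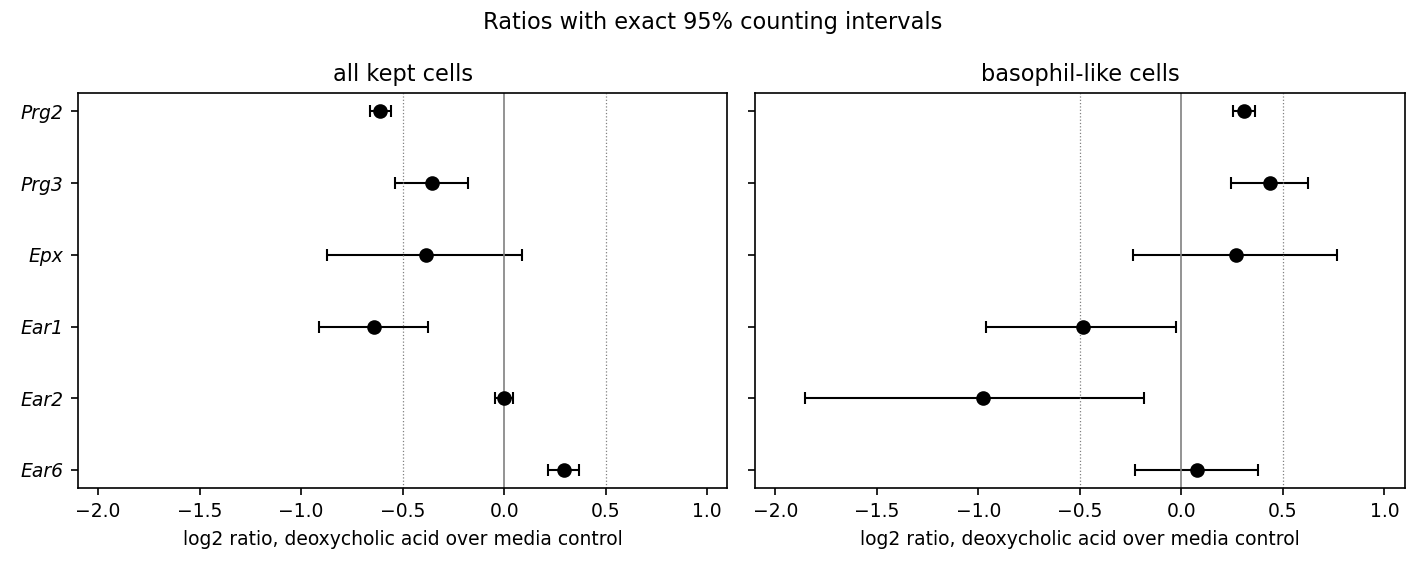
Log2 ratios of deoxycholic acid over media control for the 6 genes in all kept cells (left) and basophil-like cells (right). Bars are exact 95% counting intervals and dotted lines mark log2 ratios of 0.5 and -0.5. Prg2 lies at -0.61 on the left and 0.31 on the right.

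Prg2 RNA was concentrated in few cells. In the media control 471 of 8495 cells had a Prg2 UMI, the highest cell had 1207, and 20 cells held 90% of all its UMIs. With deoxycholic acid 126 of 7755 cells had one, the highest cell had 894, and 12 cells held 90%. Epx was alike in this respect, with 90% in 10 and 7 cells, while Ear2 needed 2646 and 2256 cells. Within the basophil-like class 166 of 235 cells had no Prg2 UMI, 24 had 1 to 9, 12 had 10 to 49 and 33 had 50 or more. Cells with 50 or more were 20 of 148 in the media control (13.5%, 8.45 to 20.1) and 13 of 87 with the bile acid (14.9%, 8.20 to 24.2), and these intervals overlapped.

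Cells with much Prg2 differed from the other basophil-like cells in what else they carried. A limit of 10 Prg2 UMIs, set after the cells had been seen, left 45 cells above it and 190 below, with 3 cells at 5 to 9 UMIs and 5 at 10 to 19. Because the cells were chosen by Prg2 and clustered on other genes, the following values are descriptions. Prg3 was at 2323 CPM in the 45 cells and 33.9 in the 190, and Epx at 377 and 0.789. Prss34 went the other way, at 1346 and 5184 CPM, as did Fcer1a, a chain of the IgE receptor, at 7.29 and 131. Cebpe, a transcription factor of granulocyte maturation, was at 245 CPM in the 45 cells and 26.0 in the others. Il5ra, the interleukin-5 receptor chain that eosinophils use, was at 51.0 and 7.10 CPM. Alox15 did not follow, at 72.9 and 71.8 CPM, and the Siglecf intervals overlapped, at 17.0 (6.84 to 35.0) and 11.8 (6.62 to 19.5). Ccr3 had 0 UMIs in the 45 cells and 4 in the 190, too few to compare.

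Ear1 split the 45 cells further. In 16 of them (11 media control and 5 deoxycholic acid) Ear1 had 2 or more UMIs, and in 29 (17 and 12) it had 0 or 1. The 16 cells had 1 Prss34 UMI between them, against 1645 CPM and 21 cells with a UMI in the 29. Mcpt8 was at 916 CPM in the 16 cells and 4807 in the 29, and Ear6 at 1939 and 785. The genes highest in the 16 relative to the 29, seen in these values and not from a list, included Ngp at 2244 and 286 CPM, Camp at 810 and 104, and S100a8 at 6241 and 892. The 16 cells were also shallower, with a median of 2456.5 UMIs against 9611, and the part that depth or RNA from other cells plays in these values was not tested.

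Among all 235 basophil-like cells, 0 of 17 with 2 or more Ear1 UMIs had 10 or more Prss34 UMIs, while 102 of the other 218 did. For Mcpt8 the counts were 2 of 17 and 159 of 218. The cell with most Ear1, in the media control, had 49 UMIs of it beside 310 of Prg2, 0 of Prss34 and 4 of Mcpt8.

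**Figure D3:**
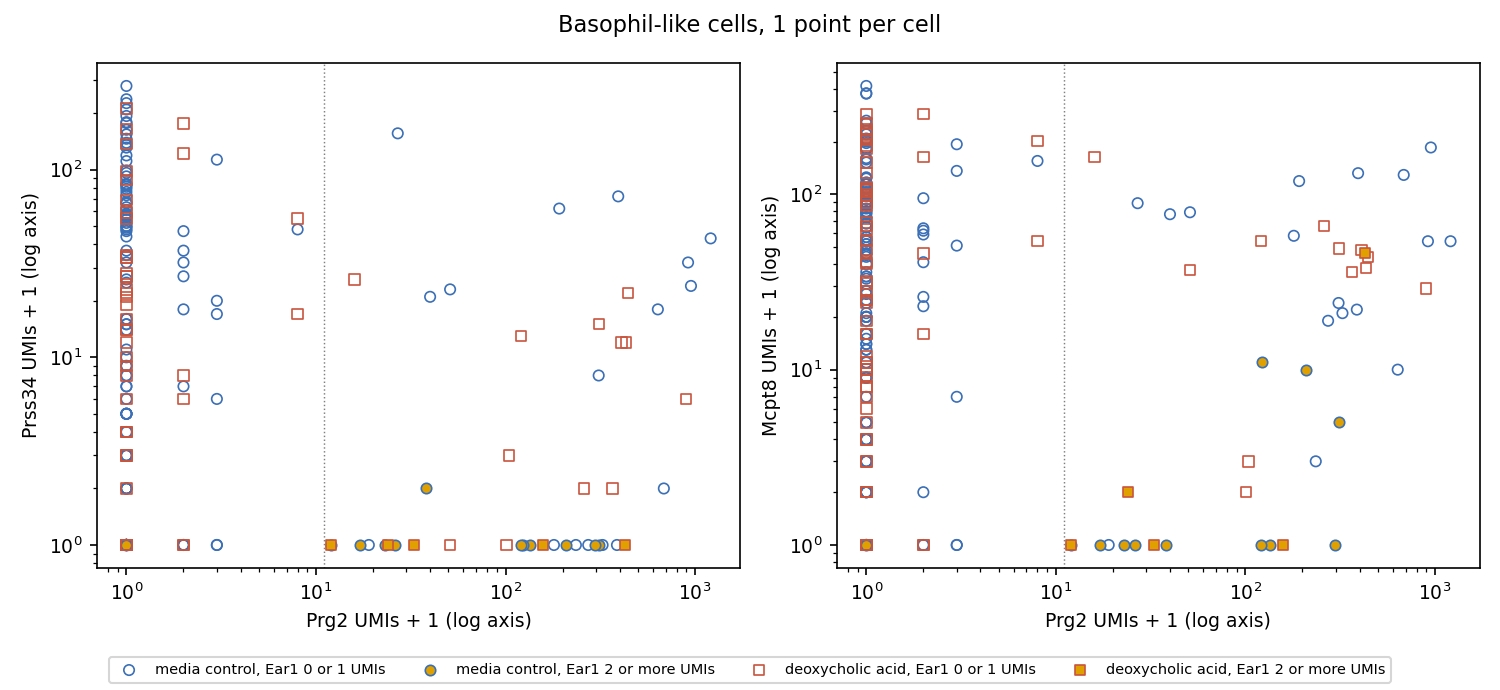
Each of the 235 basophil-like cells by its Prg2 UMIs and its Prss34 (left) or Mcpt8 (right) UMIs, on log axes with 1 added. Circles are media control and squares deoxycholic acid, filled points have 2 or more Ear1 UMIs, and the dotted line marks 10 Prg2 UMIs. Filled points lie along the bottom of the left panel, with at most 1 Prss34 UMI.

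Summed over all kept cells, Prg2 was lower with the bile acid, at 57.7 CPM (56.6 to 58.9) in the media control and 37.8 (36.7 to 38.9) with it, a log2 ratio of -0.61 (-0.66 to -0.56). Prg3 was at 4.33 and 3.38 CPM (-0.36, -0.54 to -0.18), Epx at 0.643 and 0.493 (-0.38, -0.87 to 0.09) and Ear1 at 2.27 and 1.45 (-0.64, -0.91 to -0.38). Only Prg2, Ear2 and Ear6 had at least 20 CPM and 50 UMIs in 1 library. Of these 3, Prg2 was lower past a log2 ratio of 0.5, beside 3.17% of 4670 genes lower and 1.69% higher by that rule.

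The basophil-like cells that held most Prg2 were 148 media control cells, 1.74% (1.47 to 2.04), and 87 deoxycholic acid cells, 1.12% (0.90 to 1.38), among cells that had passed the lineage-negative sort. In such sums fewer cells of a type and less RNA per cell cannot be told apart, and the values within the class are those given above. Weighted equally by cell, the log2 ratio of Prg3 in all kept cells was 0.05 in place of -0.36.

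Outside the basophil-like class Prg2 lay in a few high cells and many with 1 UMI. There, 8 kept cells had 10 or more, 4 in each library, with 970 UMIs in the media control and 175 with the bile acid. The highest pair were GMP-like media control cells with 565 and 353 Prg2 UMIs, 29 and 18 of Prg3, 0 of Prss34, 84 and 68 of Elane, and 4 and 1 of Mpo. Elane and Mpo both lead the GMP-like clusters, so these cells carried one of those markers and little of the other, at 23179 and 14897 UMIs in all. They set the GMP-like level, which was 26.4 CPM (24.9 to 28.1) in the media control and 1.07 (0.710 to 1.54) with the bile acid, a log2 ratio of -4.63. Without cells of 10 or more Prg2 UMIs it was 3.13 and 1.07 CPM, a log2 ratio of -1.55 (-2.20 to -0.95). Prg2 was the single gene of the 6 to reach both 20 CPM and 50 UMIs in GMP-like cells, and it did so only through those cells. In that class 3.54% of 4347 genes were lower past 0.5 and 2.92% higher.

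The remaining low level of Prg2 ranged from 2.79 to 3.21 CPM over the GMP-like, neutrophil-like and unnamed cells of the media control and from 0.707 to 1.07 with the bile acid. Single clusters differed more, and in the media control it was at 6.05 CPM (4.62 to 7.79) in cluster 4 and 1.87 (1.16 to 2.86) in cluster 6, both immature neutrophil-like, which did not overlap. Of 8347 media control cells outside the basophil-like class 427 had a Prg2 UMI, 381 of them exactly 1, and of 7668 deoxycholic acid cells 101 did, 91 of them exactly 1. In mature neutrophil-like cells the share with a UMI was 2.07% and 0.503% at median depths of 7209.5 and 6137 UMIs, and in immature neutrophil-like cells it was 4.94% and 1.03% at 16882 and 13671. Thinned to 5000 UMIs per cell, the mature shares were 0.639% and 0.50%, leaving out 315 and 392 shallower cells, and the immature shares 1.57% and 0.324%, leaving out 127 and 70. The part of RNA outside cells in this level was not tested.

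Ear2 was carried across the neutrophil-like classes. It was at 99.4 CPM (96.4 to 103) in immature neutrophil-like cells of the media control and 93.6 (90.3 to 97.0) with the bile acid, a log2 ratio of -0.09 (-0.16 to -0.02). In mature neutrophil-like cells it was at 89.3 CPM (83.4 to 95.5) and 84.9 (78.6 to 91.7), and these intervals overlapped. GMP-like cells had far less, at 8.41 and 6.87 CPM. In all kept cells Ear2 stood at 55.0 CPM in each library, a log2 ratio of 0.00 (-0.05 to 0.05).

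Over the 14 clusters of at least 50 cells, Ear2 in both libraries together was highest in cluster 11, an unnamed cluster led by Vcan and S100a4, at 115 CPM. Cluster 6 (immature neutrophil-like) followed at 112 and cluster 4 (immature neutrophil-like) at 105, and the interval of cluster 6 overlapped those of clusters 11 and 4 in each library, while clusters 11 and 4 did not overlap in the media control. It was lowest in cluster 10, led by Hpgd and Ccr2, at 2.83. Among the 12 clusters with at least 50 Ear2 UMIs in a library, it was lower with the bile acid in 11, with log2 ratios from -0.98 to 0.01. Of these, only clusters 2, 3, 7, 11 and 12 had intervals that left out 0. Clusters share their library, so they are not independent, and no share over all genes was set beside this count.

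Ear6 was higher in mature than in immature neutrophil-like cells. It was at 31.1 CPM (29.4 to 32.8) in immature neutrophil-like cells of the media control and 37.1 (35.1 to 39.3) with the bile acid, a log2 ratio of 0.26 (0.14 to 0.37), and 0.11 as a mean of each cell's CPM. In mature neutrophil-like cells it was at 108 CPM (101 to 115) and 110 (103 to 118), a log2 ratio of 0.04 (-0.10 to 0.17). Within the immature class it ranged from 17.3 CPM in cluster 1 and 21.1 in cluster 4 to 72.8 in cluster 6, whose leading genes include Cd177 and cell division genes. The basophil-like cluster was higher than all of these, at 258 CPM.

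Ear6 was higher with the bile acid in 9 of the 10 clusters with at least 50 UMIs in a library, with log2 ratios from -0.02 to 0.74. Only clusters 3 (0.74, 0.39 to 1.08) and 6 (0.37, 0.22 to 0.52) had intervals that left out 0. Clusters share their library, so they are not independent, and no share over all genes was set beside this count. In all kept cells Ear6 was at 18.6 CPM (17.9 to 19.2) and 22.7 (21.9 to 23.6), a log2 ratio of 0.29 (0.22 to 0.37). As a mean of each cell's CPM the ratio in all kept cells was -0.01. Neither Ear2 nor Ear6 passed a log2 ratio of 0.5 in a neutrophil-like class. In immature cells 1.71% of 4437 genes were lower by that rule and 1.4% higher, and in mature cells 1.78% of 4205 were lower and 1.24% higher.

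**Figure D4:**
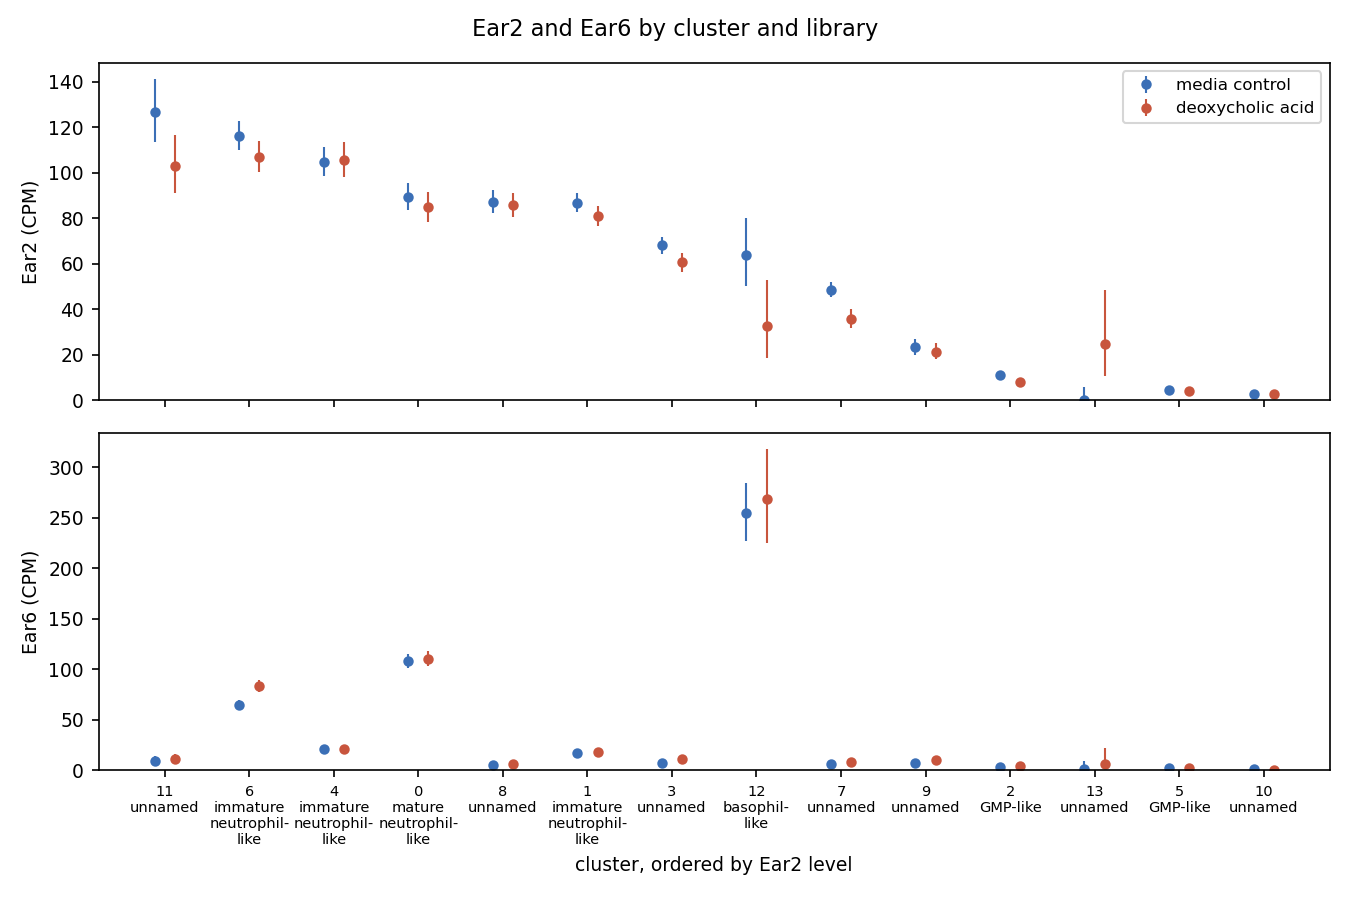
Ear2 (top) and Ear6 (bottom) levels in CPM by cluster, ordered by the Ear2 level, in the media control (blue) and deoxycholic acid (red) libraries, with exact 95% counting intervals. Ear2 is highest in cluster 11 and the immature neutrophil-like clusters 6 and 4, and Ear6 in basophil-like cluster 12 and mature neutrophil-like cluster 0.

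The share of cells with a UMI moved with depth. In immature neutrophil-like cells the media control had a share of 63.8% (61.8 to 65.8) and the bile acid library one of 56.8% (54.7 to 58.9) with Ear2, and after thinning to 5000 UMIs they were 34.4% (32.4 to 36.5) and 32.8% (30.8 to 34.8). The thinned intervals overlapped. For mature cells the thinned Ear2 shares were 31.2% and 30.1%, and for GMP-like cells, which left out 31 and 6 cells, 2.89% and 3.22%. Ear6 thinned shares were 26.9% and 25.4% in mature cells and 10.7% and 12.9% in immature cells, from 35.0% and 31.7%, and 22.2% and 23.4%, at full depth.

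Summed over each neutrophil-like class, Ear1 stood at a similar ratio to Ear2 in both libraries. Per 100 Ear2 UMIs there were 2.42 and 2.10 of Ear1 in immature and 2.56 and 2.73 in mature cells of the media control and deoxycholic acid libraries. In basophil-like cells there were 226 and 319 per 100. Single immature clusters varied more, and with deoxycholic acid cluster 4 had 22 Ear1 and 746 Ear2 UMIs and cluster 6 had 12 and 984. Ear1 itself was at 2.41 and 1.97 CPM in immature cells and 2.29 and 2.32 in mature cells. Given the shared stretches between the transcripts, whether the neutrophil Ear1 UMIs come from Ear1 molecules was not tested.

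Genes with the most similar pattern were ranked by Pearson's r of log2(CPM + 1) over 14 clusters among 6988 genes, a description in which clusters share libraries and depth. For Prg2 they were Prg3 (0.97), Rnase12 (0.95) and Emid1 (0.95), and for Prg3 they were Rnase12, Emid1 and Akr1c12 (0.99 each). For Epx they were Grm6, Il4 and Atp8b5 (0.9996, 0.9993 and 0.9990). Epx was at 92.9 CPM in basophil-like cluster 12 and at most 0.195 in any other, so its r values rest on 1 cluster. Prg2 (7328 and 38.6 CPM) and Prg3 (595 and 1.88) also stood far above their second cluster there. Ear2 lay nearest to Gak, Specc1 and C5ar1 (0.94, 0.94 and 0.92), and Ear6 to Dusp6, Tent5c and Creb3l1 (0.97, 0.96 and 0.96). Between Ear2 and Prg2 r was -0.11, and between Ear2 and Ear6 it was 0.68.

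Rnase12, a ribonuclease of the same superfamily, was at 243 and 244 CPM in basophil-like cells, a log2 ratio of 0.00 (-0.32 to 0.31). It resembled Prg3 across clusters but not among the cells of this class. Rnase12 was at 362 CPM in the 45 cells with at least 10 Prg2 UMIs and 205 in the 190 others. Prg3 was at 2323 and 33.9 there, and 96 of the 190 cells had an Rnase12 UMI. Of the 13 other ribonucleases listed, 7 had a UMI in kept cells and 4 in basophil-like cells, where Rnase6 followed at 21.9 and 16.3 CPM. Ear14, Rnase2b, Rnase1, Ang4, Ang5 and Ang6 were at 0 in all kept cells.

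Receptors, factors and granule genes linked to eosinophils and basophils were counted by the same rule in basophil-like cells, where 6.12% of all 2907 genes were higher and 13.3% lower. Of 14 receptors and enzymes, 8 could be compared, 2 were higher past 0.5 and 1 lower, with a median log2 ratio of 0.27. The 2 higher were Il3ra (0.55, 0.02 to 1.06) and Alox15 (0.51, -0.05 to 1.07). Csf2rb, the shared chain of the interleukin-3 and interleukin-5 receptors, was at 510 and 642 CPM (0.33, 0.13 to 0.53), and Cd9, a tetraspanin, at 211 and 134 (-0.66, -1.07 to -0.26). Of 14 transcription factors, 10 could be compared, 2 were higher (not named here) and 1 lower, with a median of -0.08. Gata2, which drives basophil and mast cell genes, was at 461 and 455 CPM (-0.02, -0.25 to 0.21), and Cebpb at 525 and 295 (-0.83, -1.10 to -0.57). Of 11 granule genes, 7 could be compared and 1 was higher (not named here), with a median of 0.25. Mpo was the single haem peroxidase of the 5 listed with a UMI there, at 188 and 226 CPM.

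The same lists in all kept cells gave 1 of 5 receptors and enzymes lower (Cd9, -0.58), 1 of 8 factors lower (Cebpb, -0.92) and 1 of 4 granule genes lower (Prss34, -1.15), with none higher. Their medians were 0.18, 0.08 and -0.43, and the median over all genes compared was 0.04, with 3.17% of 4670 genes lower and 1.69% higher.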

How the data were processed

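Single-cell libraries of both groups were made with 10x Genomics 3′ reagents, per the labels' protocols. The deposited table holds raw UMI counts for each gene in each cell. The submitters' processing notes name Cell Ranger 6.0. The genome build, annotation and cell filter were not given in the sources used. The genes, lists and marker sets were chosen with earlier results of these data known.

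Cells with at least 300 genes and at most 10% mitochondrial UMIs were kept. Scrublet's automatic threshold marked at most 0.0120% of cells and had not worked, so cells at or above the score that bounds the top 6% in each library were removed, which with tied scores took 6.27% of cells in the media control library and 6.80% in the other. Clusters came from scanpy 1.11.5 (2000 variable genes, 30 components, Leiden resolution 1). A cluster was named when at least 3 markers of a class were raised, at least 1 of them was among its 10 leading genes and that class led the others, a rule written after the clusters and the 6 genes' levels in them had been seen. It left without a name cluster 10 (467 media control and 299 deoxycholic acid cells), which an earlier rule had called monocyte-like, and cluster 11 (163 and 203). The limits of 10 Prg2 and 2 Ear1 UMIs, the genes shown with them, and the narrower C/EBP letters were also chosen after seeing values.

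UMIs were summed by library and class to CPM. Ratios have exact binomial intervals, sums exact Poisson and shares exact (Clopper-Pearson) binomial intervals, and a 0 was set to 3 counts. No test was run. Ratios and intervals were tested on simulated counts. Named genes are the 6 genes, the 3 most similar genes of each (for Ear1 not reported here), and the 4 list members highest in all kept and in basophil-like cells; further list members, the genes that set cells apart within the basophil-like class and those past 0.5 were named after their values were seen.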

Additional observations from a re-analysis of the deposited data

How the results depend on the processing

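No paired analysis was possible because cell names carry no sample letter, so neither could replicates be left out. The log2 ratio of Prg2 in all kept cells (-0.61) was -0.55 over every barcode, -0.54 with no doublet removal, -0.66 with size factors, -1.89 outside basophil-like cells and -1.83 without the 10 highest cells of each library. Without cells of at least 10 Prg2 UMIs, chosen after seeing the data, it was -1.56, and Prg3 and Ear1 were at -0.037 and -0.24. Outside basophil-like cells Prg3, Epx and Ear1 were at -0.56, 1.495 and -0.28, and without the 10 highest cells Prg3 and Epx were at -0.61 and -1.5005. By mean cell CPM, Prg3, Ear1, Ear2 and Ear6 were at 0.054, -1.01, -0.084 and -0.013, and Ear2 with size factors at -0.052. The gate on Mcpt8 and Prss34, over cells of any class, gave -0.067, 0.065, 0.62, 0.16 and 0.65 for Prg2, Prg3, Ear1, Ear2 and Ear6. With no doublet removal the same gate gave 0.0043, 0.057, -0.016, -0.052 and 0.59. In basophil-like cells, Prg2 and Ear6 by mean cell CPM were at -0.0031 and -0.34. Without the highest cell of the gene in each library, also chosen after seeing the data, Prg2, Ear1 and Ear6 in that class were at 0.23, -1.59 and -0.39. The Mcpt8 and Prss34 gate held 2.54% and 1.83% of kept cells, against 1.74% and 1.12% in the basophil-like class. Part of the gated cells thus lay outside that class. With the 6 genes used in clustering, 88.8% of Prg2 UMIs lay in basophil-like cells. Genes past 0.5 in all kept cells numbered 79 higher and 148 lower, 133 and 239 at 5 CPM, and 1450 and 1927 with no minimum. The cause of these shifts was not tested. Under the alternatives a further 59 values of such results lay within the reported value's counting interval.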
